A study of Mus musculus with 24 samples.

Results

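Podoplanin (PDPN) is a mucin-type transmembrane glycoprotein of lymphatic endothelium and lymph node reticular cells, known as a ligand of a platelet receptor and as a binding partner of the cytoskeletal linkers of the ezrin family. Some carcinoma cells also carry it. The genes described here are those whose transcript level was higher together with PDPN both in cells that carried the chemokine receptor CCR7 and in cells that did not. They were chosen by measured values. CPM, the reads of a gene scaled to a common library total, were averaged over the 4 libraries of each group, and a gene was taken when CCR7-PDPN was at least 1.5 times CCR7 in batch 1, X2-PDPN was at least 1.5 times X2 in batch 2, and both PDPN-positive groups had at least 1 CPM. This gave 97 genes of 13915 listed in both count tables, and of 11005 with that level.

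The cells were EO771, a mouse mammary carcinoma line, grown in culture. X2 carried the retroviral vector alone and CCR7 carried the vector with mouse Ccr7 cDNA, with tdTomato as the reporter gene. X2-PDPN and CCR7-PDPN were sorted by antibody for cells that had raised PDPN spontaneously, so no PDPN construct was added. The CCR7 group, the low arm of the choice with CCR7, was the PDPN-negative fraction sorted from CCR7-expressing cells, as its column names and the study give it. No derivative was cloned. In batch 1 the vector control, CCR7 and CCR7-PDPN were sequenced, and in batch 2 the vector control with both PDPN-positive derivatives, with 4 libraries in each of these 6 groups and 24 in all. The replicates were technical, so every p-value below measures the spread between libraries of a sorted population and not between separately derived populations. Fewer cells that express a gene and less RNA per cell cannot be told apart in such samples.

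Libraries held 22275468 to 33395418 counted reads in batch 1 and 22788542 to 35721027 in batch 2. Krt8 and Vim, both known in this line, stood between 225 and 295 CPM and between 2330 and 2966 CPM as group means, while Krt18 and Epcam were at most 0.213 and 0.0314 CPM in batch 1. Libraries of the same derivative with the same number in the 2 batches deviated together. Over 8880 genes, the Pearson r of their deviations from the group mean was 0.110 to 0.464 for X2 and 0.134 to 0.457 for CCR7-PDPN, against -0.232 to 0.142 for libraries with different numbers, and 7 of 8 libraries of batch 2 matched their own number best. Whether the batches shared RNA was not stated, so the second batch is read here as a repeat measurement and not as independent support. Among the 4 CCR7 libraries, replicate 1 stood apart, with the highest value of 19 of 22 cholesterol synthesis genes, and where a call or an overlap named below changes without it, that is said.

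The 2 ratios that chose the genes are shown as a description. Differences that involve CCR7 or X2 of batch 2 as low arms, or X2-PDPN or CCR7-PDPN of batch 1 as high arms, use groups of the choice, and their p-values below describe single genes and lend the list no support. With CCR7 the ratio ran from 1.51 to 61.3 with a median of 1.71, and without CCR7 from 1.54 to 158 with a median of 2.30. The ratio was the larger without CCR7 for 82 of the 97 genes, and 17 genes reached 2-fold on both sides. Past the fold with CCR7 were 179 genes, so the 97 were 54.2% of them, and past the fold without CCR7 were 527 genes, of which they were 18.4%. Just inside the limit with CCR7 were Mtmr11 at 1.51, Ifi213 at 1.51 and Ntn5 at 1.52, and just outside were Abcc3, Gm32585 and Faim2, each at 1.49. Just inside without CCR7 were Rdh11 at 1.54, mt-Nd5 at 1.58 and Gipr at 1.60, and just outside were Plekhh2 at 1.48, Sbk2 at 1.46 and mt-Tl1 at 1.45.

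**Figure D1:**
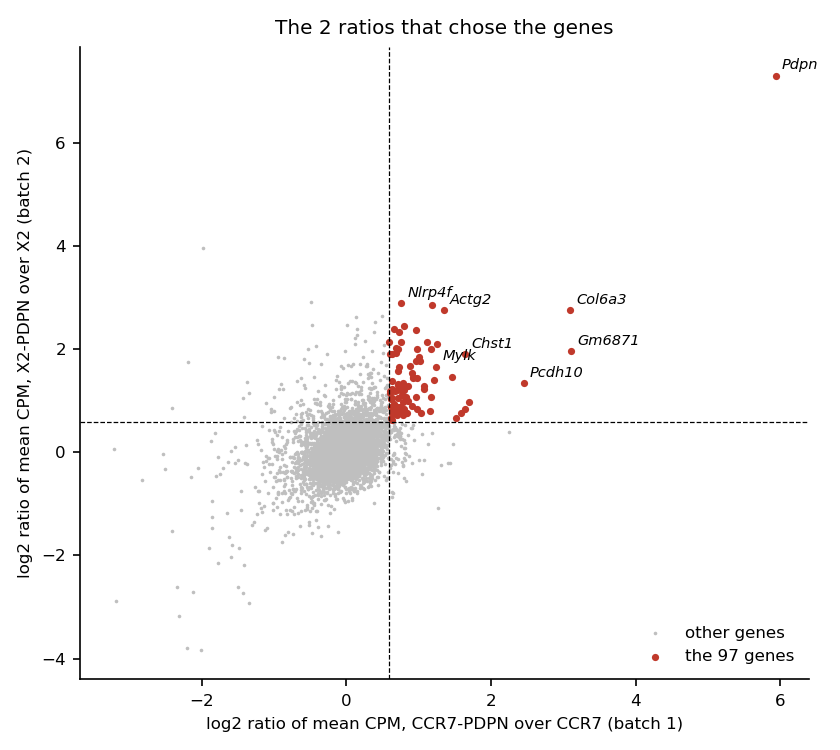
Each point is a gene with at least 1 CPM in both PDPN-positive groups, placed by the log2 ratio of mean CPM of CCR7-PDPN over CCR7 (x axis) and of X2-PDPN over X2 (y axis), with dashed lines at 1.5-fold. The 97 chosen genes (red) lie in the upper right corner by construction, and Pdpn, Col6a3, Gm6871 and Pcdh10 lie farthest out along the x axis.

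Of the 97 genes 88 were protein-coding, 5 were lincRNA genes, 2 were processed transcripts, 1 was antisense and 1 was a pseudogene. Most were low: per unit of transcript length their median level was 3.09 TPM, the length-scaled counterpart of CPM, in X2 of batch 1, against 34.4 TPM over the 11005 genes, and it was 6.66 TPM in CCR7-PDPN of batch 1 and 8.28 TPM in X2-PDPN. In X2 of batch 1, 62 of the 97 had under 5 CPM, so their ratios rest on few reads and carry more counting error than those of the cholesterol genes below. They lay on every autosome, on X and on the mitochondrial genome, at most 10 on a chromosome, and the pairs within 100 kb of each other were Trib2 with Gm48558, Tmem176b with Tmem176a, and mt-Nd4 with mt-Nd5. Tmem176b and Tmem176a overlap on opposite strands.

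Pdpn (ENSMUSG00000028583, chromosome 4, 143267431 to 143299564, GRCm38) is the gene of the sorted protein and gave the largest ratios. It had 0.0702, 0.0838, 0.0963 and 0 CPM in the X2 libraries of batch 1, 0.625, 0.413, 0.299 and 0.314 CPM in CCR7, and 26.3, 26.7, 25.01 and 23.3 CPM in CCR7-PDPN. In batch 2 it had 0.0745, 0.143, 0.165 and 0.267 CPM in X2, 25.6, 25.9, 25.4 and 25.7 CPM in X2-PDPN and 25.3, 23.5, 23.7 and 25.03 CPM in CCR7-PDPN. The PDPN-positive libraries stood far above all others, and the 2 PDPN-positive derivatives were nearly level, with a log2 difference of CCR7-PDPN from X2-PDPN of -0.06 ± 0.05 (SE, adjusted p = 0.297 by edgeR's quasi-likelihood test). The PDPN-negative libraries held few reads, 7 over the 4 X2 libraries of batch 1 and 49 over the 4 CCR7 libraries, a ratio of 6.75 with a counting interval of 3.04 to 17.7 (exact binomial, 95%).

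The promoter of Pdpn is shown because it belongs to the gene that defined the sort. It is the RefSeq window from 250 bases before to 50 after the start site, chr4:143299515-143299814 of GRCm38.p6 on the minus strand, with matches to GGGCGG, the GC box, in capitals on either strand. It holds 2 GC boxes and a hypoxia core (ACGTG), and the GC box is in 71.7% and the hypoxia core in 30.5% of the promoters of the genes with the level.
Pdpn: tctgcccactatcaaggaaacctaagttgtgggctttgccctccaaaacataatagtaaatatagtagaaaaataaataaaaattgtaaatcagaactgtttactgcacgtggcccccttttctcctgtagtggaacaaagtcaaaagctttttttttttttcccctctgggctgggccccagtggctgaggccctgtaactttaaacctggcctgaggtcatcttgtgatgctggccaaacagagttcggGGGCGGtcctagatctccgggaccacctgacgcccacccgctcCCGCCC

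A comparison whose libraries had no part in the choice was CCR7-PDPN of batch 2 against X2 of batch 1. It asks whether the genes also differed between the double-positive cells and the vector control. It carries CCR7 as well as PDPN, it crosses the batches, and batch cannot be told apart from the derivative in it. Both populations also served the choice through their libraries of the other batch. The shares below therefore repeat the choice in part and are not independent support for the list. Between batches the same derivative had a median log2 ratio of -0.01 over the 97 genes in X2 and 0.01 in CCR7-PDPN. In X2, 3 genes lay past 1.5-fold, Pdpn at 1.38 on 7 reads in batch 1 and 19 in batch 2, Gm6871 at -0.63 and Gm48558 at -0.61, and in CCR7-PDPN 0 did. The log2 fold change of Pdpn in CCR7-PDPN of batch 2 was 8.54 over X2 of batch 1 and 7.19 over X2 of batch 2 (edgeR). With a call set at an adjusted p below 0.05 together with more than a 2-fold difference (1 log2 unit), 54 of the 97 genes were higher (55.7%), against 4.35% of the 13690 genes tested, and 1 was lower, against 5.97%. The median log2 fold change was 1.06 for the 97 genes and -0.00 for all genes tested. All 4 CCR7-PDPN libraries lay above all 4 X2 libraries for 80 genes, against 25.4% of all genes, below them for 3, and the groups overlapped for 14. For the counts below and overlapping no share of all genes is given here, and nothing is read from them. Among the 82 genes past the fold with CCR7 but not without it, 19.5% were higher in this comparison, and among the 430 past it without CCR7 but not with it, 18.4% were.

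**Figure D2:**
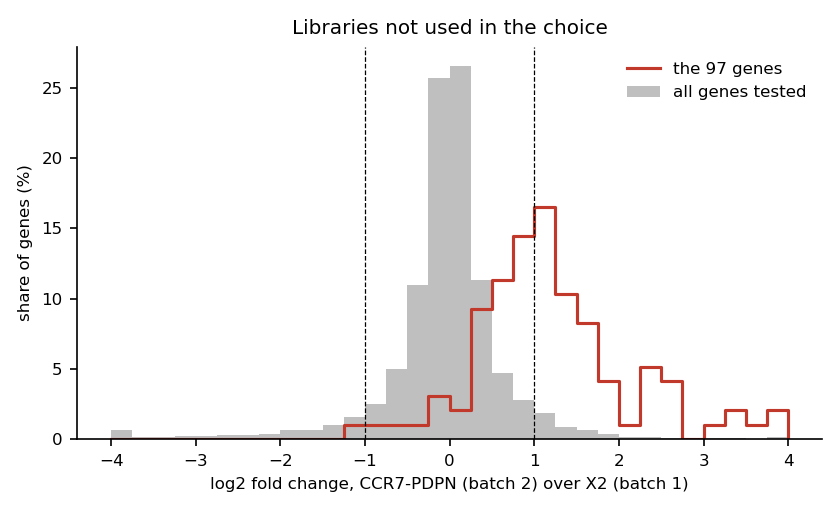
Share of genes (y axis, percent) by log2 fold change of CCR7-PDPN of batch 2 over X2 of batch 1 (x axis, bins of 0.25, values beyond 4 in either direction drawn in the end bins), for all genes tested (grey bars) and the 97 genes (red line), with dashed lines at a log2 of -1 and 1. The 97 genes centre on 1.06 and all genes on -0.00, and a few of the 97 lie below 0. Both populations served the choice through their libraries of the other batch.

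Within batch 2, CCR7-PDPN against X2 gave 50 of 97 higher, against 3.96% of all genes, and 1 lower, against 5.67%. Within batch 1 it gave 52 higher, against 4.09%, and 1 lower, against 5.36%. The median log2 fold changes of the 97 genes were 1.03 and 1.07, against -0.00 and 0.00 over all genes tested. Each of these shares a group with the choice, X2 in batch 2 and CCR7-PDPN in batch 1.

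Cholesterol synthesis was the best filled function. In this pathway acetyl-CoA is built into mevalonate, mevalonate into squalene and squalene into cholesterol, and its genes are known targets of the SREBP transcription factors, which are held back when sterols are plentiful. Of the 22 genes listed for the pathway 13 were among the 97. They include Acat2 and Hmgcs1 at its entry, Pmvk, Mvd, Idi1 and Fdps of the mevalonate branch, and Lss, Cyp51, Tm7sf2, Nsdhl, Hsd17b7 and Dhcr7, which close and trim the sterol. Fdft1 and Sqle, at 1.37 each with CCR7, missed the limit on that side. Mvk, at 1.60 and 1.27, missed it on the other, and Msmo1 at 1.40 and 1.36, Sc5d, Lbr, Ebp and Ggps1 missed both.

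**Figure D3:**
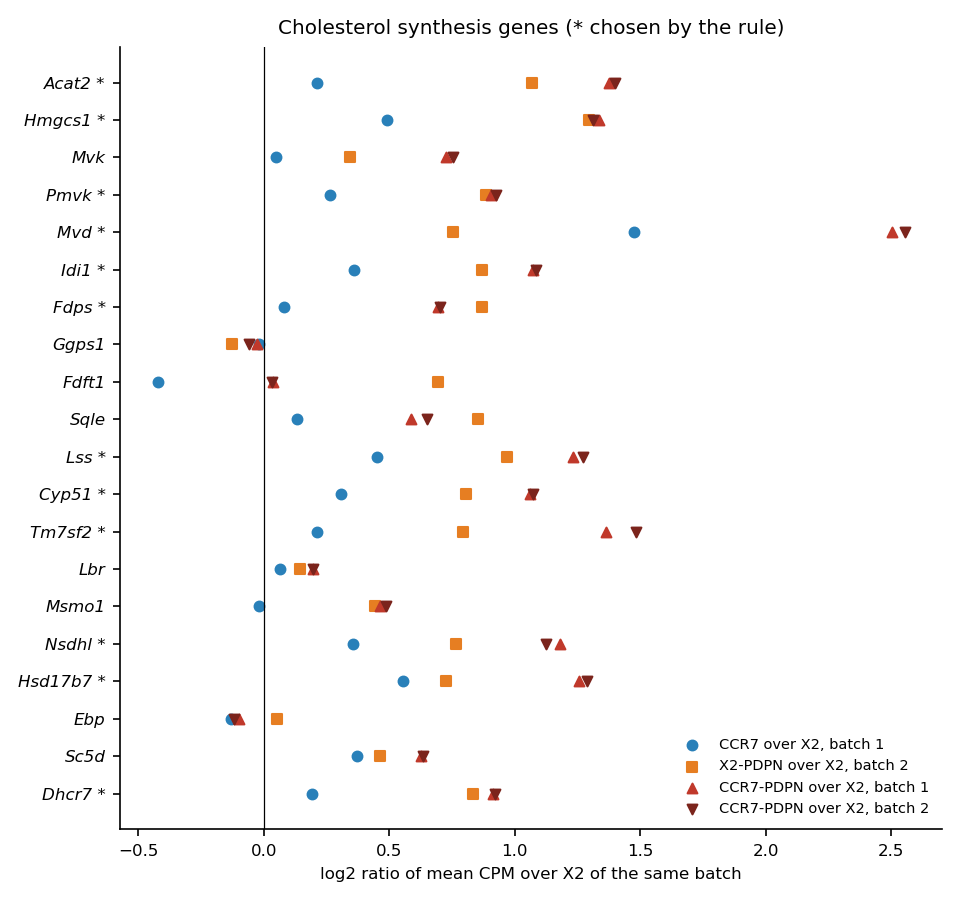
Log2 ratio of mean CPM over X2 of the same batch (x axis) for the cholesterol synthesis genes named above in pathway order from top to bottom, for CCR7, X2-PDPN and CCR7-PDPN of each batch, with chosen genes marked by an asterisk. In most rows CCR7 lies nearest to 0 and CCR7-PDPN farthest from it, while Ggps1 and Ebp stay close to 0 in every derivative.

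The sum of the 22 genes stood at 1546 ± 52.8 CPM (SD, n = 4) in X2 of batch 1, 1857 ± 167 in CCR7 and 2820 ± 50.9 in CCR7-PDPN. In batch 2 the vector control summed to 1565 ± 67.8 CPM, X2-PDPN to 2559 ± 31.2 CPM and CCR7-PDPN to 2875 ± 34.4 CPM. The lowest PDPN-positive library, at 2531 CPM, lay above the highest PDPN-negative library, CCR7 replicate 1 at 2104 CPM. The other 3 CCR7 libraries held 1754 to 1814 CPM. Of the 22 genes 14 were past the fold over CCR7, with replicate 1 of CCR7 and without it.

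Hmgcs1, which makes HMG-CoA, the precursor of mevalonate, had 126, 121, 129 and 109 CPM in X2 of batch 1, 211, 164, 150 and 156 CPM in CCR7 and 299, 316, 291 and 317 CPM in CCR7-PDPN. In batch 2 it had 130, 122, 132 and 109 CPM in X2, 306, 295, 293 and 314 CPM in X2-PDPN and 293, 321, 297 and 314 CPM in CCR7-PDPN. CCR7-PDPN and X2-PDPN overlapped and lay above every PDPN-negative library. CCR7-PDPN of batch 2 was 1.36 ± 0.08 log2 units above X2 of batch 1 (adjusted p = 2.32e-11, edgeR), and the difference between the 2 PDPN-positive derivatives was 0.04 ± 0.05 (adjusted p = 0.583).

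Acat2, an acetyl-CoA acetyltransferase, had 24.2, 26.4, 25.7 and 21.9 CPM in X2 of batch 1 and 35.7, 26.5, 26.0 and 25.5 CPM in CCR7. It had 65.9, 67.3, 62.9 and 58.5 CPM in CCR7-PDPN of batch 1 and 49.4, 49.9, 52.0 and 53.0 CPM in X2-PDPN. X2 and CCR7 overlapped, while both PDPN-positive derivatives lay above them with CCR7-PDPN the higher. Its log2 fold change in CCR7-PDPN of batch 2 over X2 of batch 1 was 1.41 ± 0.09 (adjusted p = 4.62e-12, edgeR).

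Mvd, the mevalonate diphosphate decarboxylase, was the pathway member that differed most with CCR7. It had 39.8, 38.8, 38.3 and 33.6 CPM in X2 of batch 1, 130, 94.3, 99.2 and 95.1 CPM in CCR7 and 205, 221, 211 and 215 CPM in CCR7-PDPN. X2-PDPN of batch 2 had 62.4, 63.4, 60.2 and 61.7 CPM, against 222, 218, 206 and 215 CPM in CCR7-PDPN. The 4 derivatives did not overlap, and every CCR7-bearing library lay above every library without CCR7. CCR7-PDPN exceeded X2-PDPN by 1.81 ± 0.03 log2 units (adjusted p = 5.65e-39, edgeR) and CCR7 exceeded X2 by 1.50 ± 0.10 (adjusted p = 2.41e-07), or by 1.38 without CCR7 replicate 1. Mvd lies at 122433601 to 122443422 on chromosome 8, where the 182 genes with the level from 104226685 to 123983122 had a median log2 fold change of 0.95 in CCR7 over X2 and of 1.30 in CCR7-PDPN over X2-PDPN. The part of that stretch in the Mvd values was not tested. Atp2c2 and Dpep1, also among the 97, lie in it too.

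In CCR7-PDPN of batch 2 against X2 of batch 1, 10 of the 13 chosen pathway genes were called higher, against 4.35% of all genes tested. All 13 were higher at an adjusted p under 0.05 by edgeR at any fold, as were 30.8% of all genes tested. The log2 fold changes of the 13 ran from 0.70 to 2.54, with a median of 1.19. The other 84 chosen genes had a median of 1.03. Of the 9 pathway genes outside the choice none was called at 2-fold in either direction, and 6 had an adjusted p under 0.05 and a higher level, with a median of 0.59. The rule itself split the 13 from the 9, and both populations served it through their libraries of the other batch. The gap between these pathway genes is therefore a description and follows in part from the choice. Beside the pathway, Insig1, which retains the SREBP complex in the endoplasmic reticulum, and Lpin1, a phosphatidate phosphatase, were the 2 of 15 sterol uptake and control genes in both count tables among the 97. Insig1 stood at 93.9 CPM in X2 and 102 CPM in CCR7, against 159 CPM in CCR7-PDPN and 165 CPM in X2-PDPN, and its difference of 0.85 ± 0.06 in the cross-batch comparison did not reach 2-fold (adjusted p = 4.82e-12, edgeR). Lpin1 was higher by 1.05 ± 0.04 (adjusted p = 1.69e-23, edgeR). Of 13 listed fatty acid synthesis genes 1, Acss2, was chosen.

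The promoters of the pathway are shown because it was the best filled function. Of the 97 genes 69 had a promoter in the RefSeq table. The core of the sterol regulatory element, searched as TCACNCCAC on both strands, was in the promoter of 1 of these 69, Hmgcs1, and in 1.37% of the promoters of genes with the level. CCAAT on either strand was in 10 of 11 promoters of chosen pathway genes and in 43.8% of those of genes with the level, and the GC box in 10 of 11 and in 71.7%. Over all listed pathway genes with a promoter, chosen or not, CCAAT was in 16 of 17 and the GC box in 15 of 17. The matches are thus not particular to the chosen genes. These are letter matches in a window of 300 bases and not measured binding. The windows below hold 60 bases on the strand of the gene in GRCm38.p6, with the sterol element core in capitals for Hmgcs1 (chr13:119690189-119690248, plus strand) and the CCAAT box, read as CCAAT or its reverse complement, in capitals for Mvd (chr8:122443418-122443477, minus strand), Lss (chr10:76531515-76531574, plus strand), Cyp51 (chr5:4104695-4104754, minus strand) and Idi1 (chr13:8885564-8885623, plus strand).
Hmgcs1: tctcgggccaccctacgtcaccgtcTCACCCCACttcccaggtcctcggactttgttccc
Mvd: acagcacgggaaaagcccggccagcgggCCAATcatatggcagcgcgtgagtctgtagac
Lss: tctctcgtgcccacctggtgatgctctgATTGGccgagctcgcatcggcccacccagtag
Cyp51: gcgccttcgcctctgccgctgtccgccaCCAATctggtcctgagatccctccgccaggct
Idi1: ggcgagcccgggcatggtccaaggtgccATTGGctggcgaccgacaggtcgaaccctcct

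The other motifs were searched on both strands in the same way. AP-1 (TGANTCA) was in 11 of 69 promoters of the chosen genes and in 5.93% of those of genes with the level, the TEAD motif (GGAATG) in 16 of 69 and in 13.8%, and the hypoxia core in 15 of 69 and in 30.5%. Over all 69, CCAAT was in 37 and the GC box in 35.

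Listed matrix genes were few among the 97 but held the second marker of the set. Of 21 listed collagen genes in both tables, 15 with the level, Col6a3 and Col18a1 were chosen, while 9 of the 15 were past the fold without CCR7 and 2 with it. Of 37 listed matrix glycoproteins and proteoglycans, 29 with the level, none was among the 97. Of 23 crosslinking and remodelling genes, 17 with the level, none was either. Vwa1, a matrix protein described below, was among the 97 but on neither of these lists. Col6a3 (ENSMUSG00000048126, chromosome 1, 90765923 to 90843971) encodes a chain of collagen VI, a microfibrillar collagen. It had 1.72, 1.80, 2.21 and 1.93 CPM in X2 of batch 1, 12.2, 19.0, 13.9 and 16.5 CPM in CCR7 and 135, 135, 142 and 113 CPM in CCR7-PDPN. In batch 2 it had 2.23, 2.18, 1.68 and 1.87 CPM in X2, 13.3, 11.8, 14.0 and 14.97 CPM in X2-PDPN and 141, 138, 150 and 122 CPM in CCR7-PDPN.

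CCR7 and X2-PDPN thus held Col6a3 at like levels, and the double-positive cells stood above both without overlap. CCR7 exceeded X2 by 3.01 ± 0.20 log2 units (adjusted p = 2.6e-07, edgeR) and CCR7-PDPN exceeded X2-PDPN by 3.38 ± 0.07 (adjusted p = 1.76e-15). The difference of these differences, a comparison added after the data were seen, was 0.37 ± 0.25 (adjusted p = 0.265), so on the log scale the step with CCR7 was not shown to differ with PDPN. Col18a1, the collagen that yields endostatin, was far more abundant and changed less. It had 233 to 240.8 CPM in X2 of batch 1, 196 to 199 CPM in CCR7, 312 to 318 CPM in CCR7-PDPN and 419 to 437 CPM in X2-PDPN. Its groups did not overlap, with CCR7 the lowest and X2-PDPN the highest, and its difference of 0.47 ± 0.02 in the cross-batch comparison (adjusted p = 7.77e-19, edgeR) stayed under 2-fold.

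**Figure D4:**
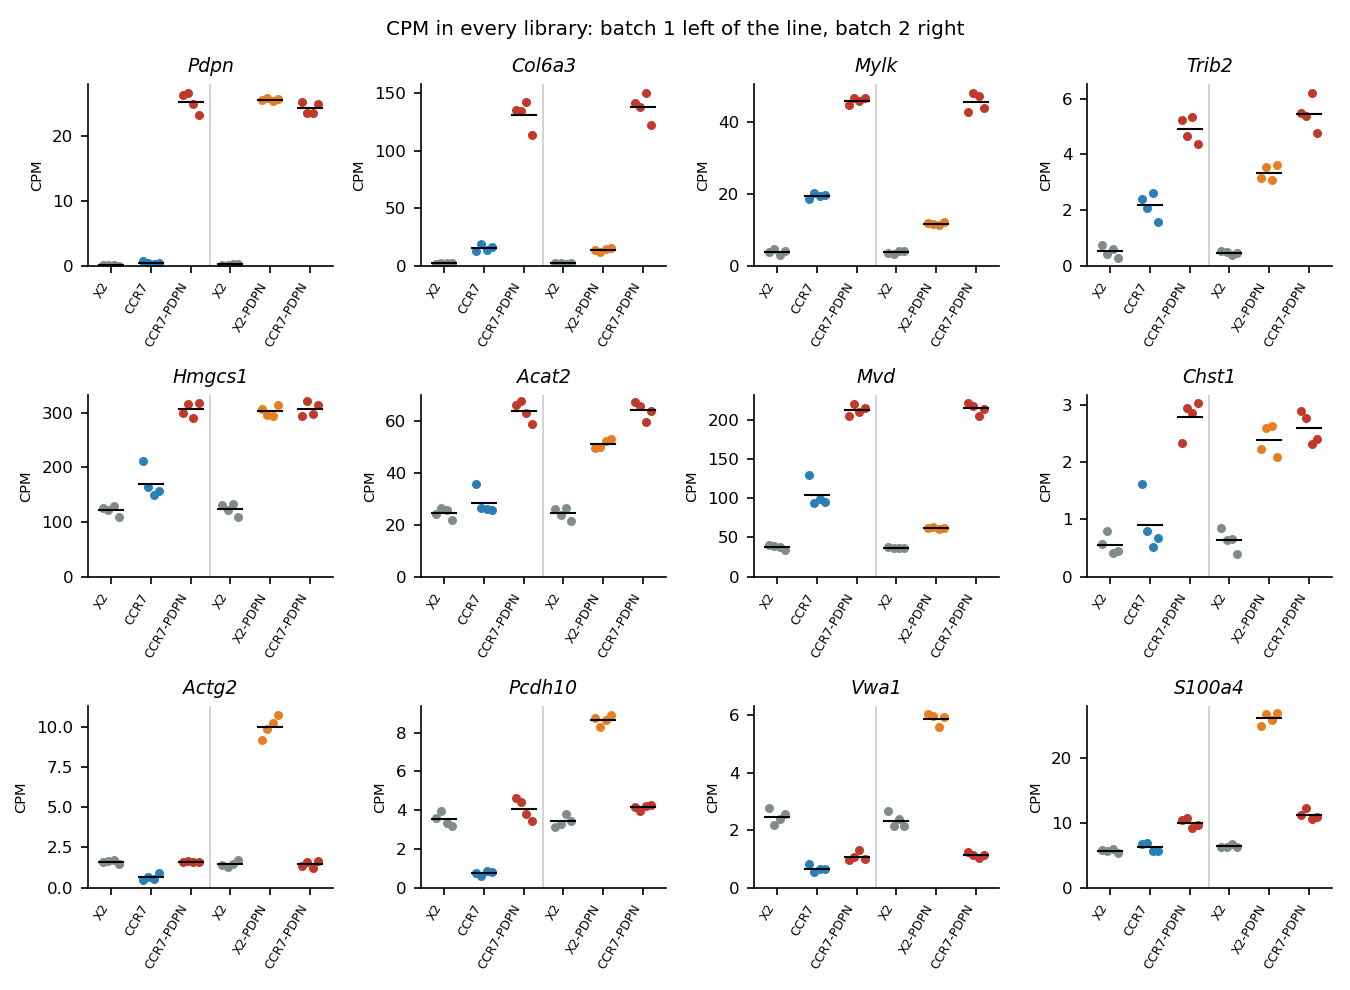
CPM (y axis, each panel with its own linear scale from 0) of 12 of the 97 genes in every library, with batch 1 left of the grey line and batch 2 right of it, points for the 4 libraries of a group and a bar for their mean. Pdpn is near 0 in every PDPN-negative library, Col6a3 and Mvd are highest in CCR7-PDPN, and Actg2, Pcdh10, Vwa1 and S100a4 are highest in X2-PDPN.

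The 2 chosen genes of the 21 listed for muscle contraction and counted in both batches differed in direction with CCR7. Mylk, the myosin light chain kinase, had 3.62, 4.52, 2.95 and 4.03 CPM in X2 of batch 1, 18.6, 20.3, 19.4 and 19.5 CPM in CCR7 and 44.6, 46.6, 45.6 and 46.5 CPM in CCR7-PDPN. X2-PDPN had 11.8, 11.4, 11.3 and 12.0 CPM. Mylk was therefore lowest in X2 and rose in the order X2, X2-PDPN, CCR7, CCR7-PDPN with no overlap, and it was 3.63 ± 0.07 log2 units higher in CCR7-PDPN of batch 2 than in X2 of batch 1 (adjusted p = 5.27e-33, edgeR).

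Actg2, the smooth muscle gamma actin, had 1.58, 1.68, 1.70 and 1.45 CPM in X2 of batch 1, 0.437, 0.654, 0.509 and 0.898 CPM in CCR7 and 1.56, 1.62, 1.57 and 1.60 CPM in CCR7-PDPN. X2-PDPN had 9.18, 9.83, 10.2 and 10.7 CPM. The double-positive cells overlapped with the vector control, at a log2 difference of -0.12 ± 0.15 (adjusted p = 0.508, edgeR), and only CCR7 lay lower and X2-PDPN higher. Its ratio of 2.55 with CCR7 was thus taken over a low level in CCR7. The same holds for Pcdh10, a protocadherin, which had 3.20 to 3.94 CPM in X2 of batch 1, 0.585 to 0.838 CPM in CCR7, 3.44 to 4.63 CPM in CCR7-PDPN and 8.29 to 8.94 CPM in X2-PDPN.

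Among the members with the highest ratios on both sides, Chst1, a carbohydrate sulfotransferase, had 0.417 to 0.796 CPM in X2 of batch 1 and 0.509 to 1.62 CPM in CCR7, against 2.35 to 3.04 CPM in CCR7-PDPN and 2.10 to 2.64 CPM in X2-PDPN. The PDPN-positive libraries lay above all PDPN-negative ones, and the difference between the PDPN-positive derivatives was 0.12 ± 0.14 (adjusted p = 0.47, edgeR). Trib2, a pseudokinase, had 0.275 to 0.737 CPM in X2 of batch 1, 1.57 to 2.61 CPM in CCR7, 4.37 to 5.34 CPM in the double-positive cells and 3.08 to 3.60 in X2-PDPN. Sema6d, a transmembrane semaphorin, had 2.20 to 3.09 CPM in X2 of batch 1 and 2.07 to 2.83 CPM in CCR7, which overlapped, against 5.24 to 6.13 in CCR7-PDPN and 9.04 to 10.8 in X2-PDPN. Trpm6, a magnesium-permeable channel, stayed below 2 CPM throughout, and Gm6871 stayed below 5 CPM.

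S100a4, a calcium-binding protein used as a marker of mesenchymal cells, was the only one of 19 listed mesenchymal transition genes counted in both batches among the 97. It had 5.30 to 5.94 CPM in X2 of batch 1, 5.57 to 6.88 CPM in CCR7, 9.19 to 10.8 CPM in CCR7-PDPN and 24.95 to 26.9 CPM in X2-PDPN. The 2 PDPN-negative derivatives overlapped, and X2-PDPN stood above CCR7-PDPN, by 1.20 ± 0.06 log2 units (adjusted p = 1.6e-22, edgeR). Its difference of 1.02 ± 0.08 from X2 in the cross-batch comparison sat at the 2-fold limit. Of 37 listed hypoxia response genes 1 was chosen, Car9, the membrane carbonic anhydrase IX, with 1.72 to 2.18 CPM in X2 of batch 1, 2.74 to 3.28 CPM in CCR7, 4.82 to 5.71 CPM in CCR7-PDPN and 7.44 to 9.86 in X2-PDPN. Of 17 listed Wnt genes 1, Wnt5b, was chosen, of 20 stress and immediate early genes 1, Egr1, and of 10 genes for podoplanin and its partners Pdpn alone. No member came from the listed integrins and adhesion, epithelial, TGF-beta and BMP, growth factor, interferon-stimulated or cell cycle genes, nor from the endothelial, fibroblast and leukocyte markers. With the level were 4 epithelial genes, 2 endothelial, 4 fibroblast and 2 leukocyte markers, and 16 to 26 genes in each other list. As 0.881% of all genes with the level were chosen, nothing is read from these absences. The lists also do not hold every gene of a function. Itgal, an integrin chain described below, was among the 97 but not on the list of integrins and adhesion.

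The mitochondrially encoded complex I subunits mt-Nd4 and mt-Nd5 were chosen by the rule but varied widely between libraries. mt-Nd5 had 338 to 431 CPM in X2 of batch 1, 247 to 543 CPM in CCR7, 389 to 703 CPM in CCR7-PDPN of batch 1 and 479 to 666 in X2-PDPN. X2 overlapped with CCR7 and with CCR7-PDPN, while CCR7 overlapped with CCR7-PDPN of batch 1 and with X2-PDPN through replicate 1 alone, and its other 3 libraries, at 247 to 349 CPM, lay below both. The cross-batch difference was 0.36 ± 0.22 (adjusted p = 0.168, edgeR). For mt-Nd4 it was 0.53 ± 0.26 (adjusted p = 0.0874). The 10 mitochondrial genes with the level had median log2 ratios of 0.57 with CCR7 and 0.60 without.

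Some members are known from immune cells, and markers of leukocytes, endothelium and fibroblasts are set beside them. Itgal, a leukocyte integrin chain, and Siglec1, a lectin of macrophages, named after their values were seen, were higher in CCR7-PDPN of batch 2 than in X2 of batch 1, by 1.24 ± 0.15 and 1.68 ± 0.13 log2 units (adjusted p = 5.35e-09 and 3.76e-11, edgeR). The summed level of the 10 leukocyte markers was 53.5 to 62.2 CPM in X2 and 17.5 to 23.3 CPM in CCR7 of batch 1, and 10.4 to 13.3 CPM in CCR7-PDPN. In X2-PDPN the 4 of them listed in batch 2 summed to 27.0 to 32.0 CPM, above CCR7 and below X2. Siglec1 had 5.00 to 9.49 CPM in CCR7 and 11.6 to 14.1 CPM in X2-PDPN. Cd68 made up most of the sum, and Ptprc, the defining leukocyte gene, was at most 0.0788 CPM and Cd3e at 0 as group means in batch 1. The 12 endothelial markers summed to 50.2 to 53.1 CPM in X2 and 56.9 to 62.8 CPM in CCR7-PDPN of batch 1, with 2 of them at 1 CPM or more. Prox1, the defining factor of lymphatic endothelium, was at most 0.00878 CPM as a group mean in batch 1. The 14 fibroblast and reticular cell markers summed to 230 to 236 CPM in X2 of batch 1 and 206 to 221 CPM in CCR7-PDPN, and the 6 listed in batch 2 summed to 233 to 239.7 CPM in X2 and 242 to 258 CPM in X2-PDPN, most of it Pdgfra and Pdgfrb. Some of these markers were higher in X2-PDPN than in X2 as group means, Col1a1 at 5.40 against 2.11 CPM, Pi16 at 3.69 against 1.13 CPM and Dpt at 0.339 against 0.00824 CPM. Lum, Thy1, Ccl19 and Ccl21a were at 0 in every library of batch 1, which held no X2-PDPN library, so these zeros do not cover X2-PDPN. The part of such cells in the values of the 97 genes was not tested.

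The next comparison asks how the chosen genes differed with CCR7, once among PDPN-negative and once among PDPN-positive cells. CCR7 against X2 in batch 1 gave 17 of 97 genes higher, against 3.3% of all genes, and 8 lower, against 3.18%. CCR7-PDPN against X2-PDPN in batch 2 gave 6 higher, against 2.76%, and 12 lower, against 6.4%. The median log2 fold change was 0.24 in the first and -0.10 in the second, and 0.00 over all genes tested in each. The choice used CCR7 as a low arm and X2-PDPN as a high arm, which favours low values in both comparisons, so these counts are a description and nothing is read from their distance to the share of all genes.

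Higher with CCR7 in both comparisons were 5 genes: Col6a3, Mvd, Mylk, Tmem176b and Tulp2. Lower with CCR7 in both were 6 genes, Vwa1, Actg2, Pcdh10, Slc17a7 and Hspa12a among them. Vwa1, a matrix protein, was the gene called lower in CCR7-PDPN than in X2. It had 2.77, 2.18, 2.38 and 2.55 CPM in X2 of batch 1, 0.812, 0.550, 0.629 and 0.628 CPM in CCR7 and 0.969, 1.05, 1.29 and 1.00 CPM in CCR7-PDPN, against 6.03, 5.96, 5.59 and 5.96 CPM in X2-PDPN. Both CCR7-bearing derivatives lay below the vector control and X2-PDPN above it, and the cross-batch difference was -1.11 ± 0.14 (adjusted p = 1.43e-08, edgeR). Slc17a7, a vesicular glutamate transporter, followed the same order, with 1.72 to 2.24 CPM in X2 of batch 1, 0.359 to 0.843 CPM in CCR7, 0.978 to 1.08 CPM in CCR7-PDPN and 3.56 to 3.90 in X2-PDPN. For such genes the higher level with PDPN in the CCR7 background did not bring them past the vector control.

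**Figure D5:**
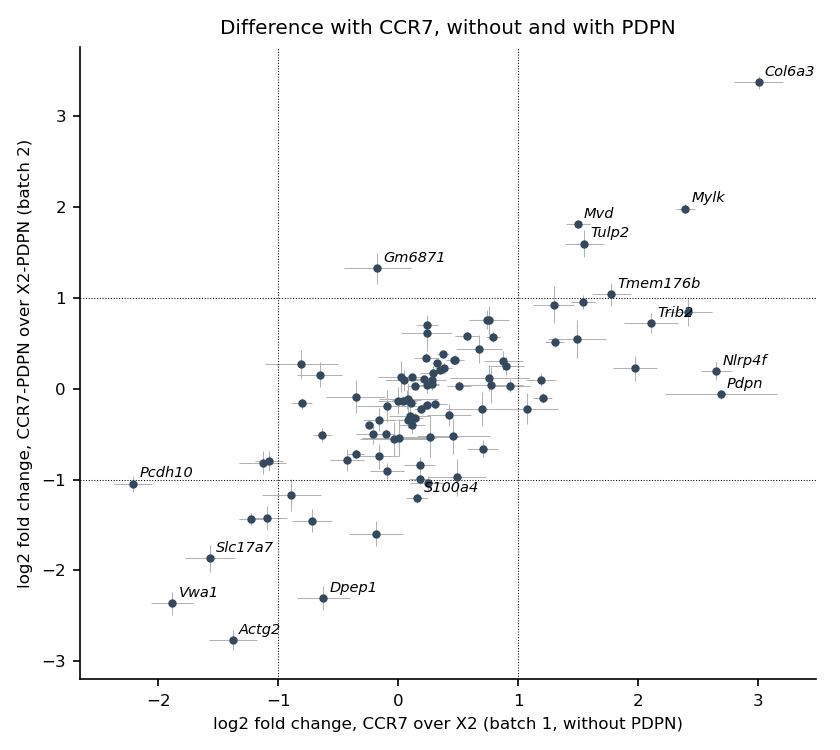
Log2 fold change of CCR7 over X2 in batch 1 (x axis) and of CCR7-PDPN over X2-PDPN in batch 2 (y axis) for the 97 genes, with bars of 1 SE and dotted lines at -1 and 1. The 2 comparisons share no library, Col6a3, Mylk, Mvd and Tulp2 lie at the upper right, and Vwa1, Actg2, Slc17a7 and Pcdh10 lie at the lower left.

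The test of the difference between these 2 steps, added after the data were seen, called 3 of 97 genes higher, against 0.898% of all genes, and 17 lower, against 4.12%. It is built from the same low arm and high arm of the choice, so its counts are a description too. A low CCR7 arm favours positive values and a high X2-PDPN arm negative ones. A negative value means that the step with CCR7 was smaller, or more negative, among PDPN-positive cells. Nlrp4f, a gene of the NLR family, gave -2.45 ± 0.20 (adjusted p = 2.93e-11, edgeR). It had 0.838 to 1.48 CPM in X2 of batch 1 and 6.84 to 8.47 CPM in CCR7. X2-PDPN had 10.5 to 11.9 CPM and CCR7-PDPN of batch 2 had 12.0 to 13.5 CPM. CCR7 and PDPN thus each came with a level above X2. The 2 together stood little above X2-PDPN and further above CCR7. Dpep1, a membrane dipeptidase, had 1.23 to 2.05 CPM in X2 of batch 1, 0.585 to 1.37 CPM in CCR7 and 1.12 to 2.22 CPM in the double-positive cells of batch 2, but 7.28 to 8.50 in X2-PDPN. X2-PDPN stood apart for this gene, and the other 3 derivatives overlapped with CCR7-PDPN taken from batch 2. Within batch 1, CCR7-PDPN had 1.49 to 2.10 CPM and lay above every CCR7 library. Without replicate 1, CCR7 also lay below X2 of batch 1.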

How the data were processed

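The authors made stranded mRNA libraries from total RNA of cultured EO771 derivatives, sequenced 75-base single-end reads and mapped them to GRCm38/mm10 (the aligner is not given in the sources used here). Raw counts per Ensembl gene were deposited in a table for each batch, of 55471 genes (featureCounts) for batch 1 and 13915 for batch 2, the latter filtered in a way that was not stated. Symbols came from GENCODE M21 and matched 13904 of the 13915 genes. CPM used the column totals, and TPM the gene lengths given in the batch 1 table.

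Counts were tested with edgeR 4.0.16 (TMM factors 0.985 to 1.017, filterByExpr, robust quasi-likelihood fit, R 4.3.3) on all genes, with Benjamini-Hochberg adjustment, and called at an adjusted p below 0.05 with over 1 log2 unit of difference, the limits the study used. All 97 chosen genes passed the filter. Batch 1 and batch 2 were fitted separately, and the cross-batch comparison over all 24 libraries. The fits were tested on simulated counts. DESeq2 1.42.0, other scalings, filters, thresholds and left-out libraries were tried as alternatives. Libraries of a group differed by more than sampling noise (chi-square per degree of freedom 2.07 to 22.5 over 36 pairs), so none was counted as a copy.

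The 97 genes, the gene lists and the motifs were chosen with earlier results of these data known. Named are Pdpn and Col6a3, the 12 members with the largest of the smaller ratios, the 10 most abundant, members on lists with 2 or more members (at most 6 a list), those next to the limits and the 3 largest rises and falls in each comparison with CCR7. A few genes are counted but not reported by name here. Others were named after their values were seen. Promoter sequences came from RefSeq (GRCm38.p6).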

Additional observations from a re-analysis of the deposited data

Results flagged for a closer look

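Values by library of 35 named genes in the 6 groups were screened for a library far from the other 3 of its group by Dixon's criterion, which chance meets in about 1 in 20 groups. Of 210 groups 6 met it. In CCR7 of batch 1 replicate 1 was high for 3 cholesterol synthesis genes, Acat2 at 35.7 CPM, Lss at 139 CPM and Mvd at 130 CPM, and the same library was highest for 19 of the 22 genes of that pathway. Without it the rule took 108 genes in place of 97, with 94 shared. The other 3 were Vwa1 at 5.59 CPM in X2-PDPN, Slc17a7 at 2.24 CPM in X2 of batch 1 and S100a4 at 6.76 CPM in X2 of batch 2.

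The step with CCR7 was called different between PDPN-positive and PDPN-negative cells for 10 of the named genes (edgeR). This comparison was added after the data were seen. Some genes were named for their large differences with CCR7, so the count is a description. Over all genes tested, the difference of the 2 log2 fold changes was called higher for 0.898% and lower for 4.12%. It was negative for Pdpn at -2.75 (which rests on 7 reads in the X2 libraries of batch 1), Nlrp4f at -2.45, Dpep1 at -1.68, Trib2 at -1.38, Actg2 at -1.38, Car9 at -1.37, S100a4 at -1.36 and Btnl7-ps at -1.28. It was positive for Gm6871 at 1.50 and Pcdh10 at 1.17. The choice used CCR7 as a low arm, which favours positive values here, and X2-PDPN as a high arm, which favours negative ones.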

How the results depend on the processing

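The rule gave 101 genes on TMM-scaled CPM, 97 with totals over the genes of both tables and 128 at 0.5 CPM, each holding the 97. It gave 17 at 2-fold, 345 at the lower fold limit tried and 49 at 5 CPM. With a library left out it gave 93 to 108, and 73 of the 97 stayed in each time. With a 1.5-fold limit on the calls, the counts higher and lower were 75 and 2 for CCR7-PDPN of batch 2 against X2 of batch 1, 78 and 3 for CCR7-PDPN against X2 in batch 2, 76 and 2 in batch 1, 14 and 22 for CCR7-PDPN against X2-PDPN and 26 and 15 for CCR7 against X2. Over all genes the shares in the same order were 8.93% and 10.4%, 8.58% and 10.5%, 8.75% and 10.1%, 5.54% and 11.3%, and 7.14% and 6.49%. With no fold limit they were 84 and 3, 86 and 3, 83 and 3, 30 and 42, and 41 and 18, against 30.8% and 31.5%, 32.0% and 32.8%, 30.3% and 30.6%, 31.2% and 32.0% of all genes, and 3189 and 3345 of 13261 genes for CCR7 against X2, so the 30 of CCR7-PDPN against X2-PDPN lay at the share of all genes. With a library left out the higher counts were 52 to 55, 48 to 53, 50 to 53, 6 to 7 and 17, and the lower counts 1, 0 to 1, 1, 11 to 14 and 8. The 0 came without CCR7-PDPN replicate 3 or X2 replicate 1 of batch 2, where Vwa1 was at -0.97 and -0.95. DESeq2, other scalings and filters and a fit with batch as a term (50 higher) kept every count and median within 1.5 times or the library spread. Calls near 2-fold were lost in the cross-batch comparison for S100a4 (0.84 with batch as a term, 0.99 without X2 replicate 4, 0.97 without CCR7-PDPN replicate 2), for Sema6d (0.997 without X2 replicate 4) and for Plet1 (0.96 with batch as a term, 0.90 to 0.99 without X2 replicate 3 or 4 or CCR7-PDPN replicate 1 or 3). In CCR7-PDPN against X2-PDPN they were lost for Tmem176b (0.97 without X2-PDPN replicate 3) and Btnl7-ps (without the same library, or -0.98 without CCR7-PDPN replicate 1), and in CCR7 against X2 for Gm14124 (-0.99 without CCR7 replicate 1). Replicate numbers did not pair the derivatives (r of deviations -0.12 to 0.11), and the replicate block left the counts at 54, 50, 52, 6 and 12, and 17 and 8. The levels under 5 CPM limit the precision of most single ratios.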
